A study of Homo sapiens with 3 samples.

Results

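The genes described here are 7 genes of mucosal defence and squamous mucosa: PI3, SLPI, LCN2, C3, CFB, RHCG and PLAC8. They are 7 of 11963 genes that the arrays could name singly, and were measured by 9 of 22283 probe sets on Affymetrix arrays, PI3 and CFB by 2 each and the others by 1. They were chosen for large differences between these same arrays, so their differences are given as a description, with no test. The cells were CAL 27, a line from a poorly differentiated squamous carcinoma of the tongue, kept in medium with 10% fetal bovine serum. Per the labels, each of the 3 cultures was stably transfected with an EGFP plasmid: one carried nm23-H1 and expressed it as an EGFP fusion, one carried nm23-H2, and the control carried the empty vector and expressed EGFP alone. The nm23-H1 RNA came from clones whose number is not stated, the vector RNA from a single clone, and the study's design text does not describe the nm23-H2 cells. Each group was 1 array, so no difference has a replicate check, no p-value was computed, and a difference due to the construct cannot be told apart from one between separately grown transfectants.

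PI3, SLPI, LCN2, C3 and CFB encode parts of the chemical barrier of wet epithelia. PI3 (elafin) and SLPI are small secreted inhibitors that block neutrophil elastase, an enzyme that damages tissue during inflammation. LCN2 (lipocalin 2) starves bacteria of iron by binding their siderophores, while C3 is the central protein of complement and CFB (factor B) is the protease that joins it to form the convertase of the alternative pathway. RHCG is an ammonium transporter of the Rh glycoprotein family, also made in squamous epithelium, and PLAC8 is a small cysteine-rich protein first described in placenta. Several of these genes, LCN2, C3 and CFB among them, are known targets of inflammatory signalling through NF-kB and interleukin 1.

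The RefSeq promoter table (assembly GRCh38.p14) held 3 of the 7 genes, LCN2, CFB and PLAC8. Each sequence runs from 250 bases before the gene's start to 50 after it. These 3 are shown because they were the ones held, whatever their differences between the arrays. Capitals mark matches, on either strand, to the NF-kB site and to the motifs TGANTCA (AP-1), TTNNGNAAT (C/EBP) and TTCNNNGAA (STAT). The LCN2 window is chr9:128149203-128149502 on the plus strand, the CFB window chr6:31945845-31946144 on the plus strand, and the PLAC8 window chr4:83114680-83114979 on the minus strand.
LCN2: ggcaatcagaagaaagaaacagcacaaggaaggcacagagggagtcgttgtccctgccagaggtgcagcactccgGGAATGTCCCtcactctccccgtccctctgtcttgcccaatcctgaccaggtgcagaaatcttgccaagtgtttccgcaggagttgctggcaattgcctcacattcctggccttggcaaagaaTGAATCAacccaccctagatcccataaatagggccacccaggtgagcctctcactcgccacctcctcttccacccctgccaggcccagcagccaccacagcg
CFB: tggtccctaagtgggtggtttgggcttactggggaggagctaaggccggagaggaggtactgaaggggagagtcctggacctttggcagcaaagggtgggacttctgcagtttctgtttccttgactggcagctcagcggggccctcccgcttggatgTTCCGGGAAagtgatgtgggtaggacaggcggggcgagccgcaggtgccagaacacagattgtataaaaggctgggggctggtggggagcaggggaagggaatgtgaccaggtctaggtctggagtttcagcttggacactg
PLAC8: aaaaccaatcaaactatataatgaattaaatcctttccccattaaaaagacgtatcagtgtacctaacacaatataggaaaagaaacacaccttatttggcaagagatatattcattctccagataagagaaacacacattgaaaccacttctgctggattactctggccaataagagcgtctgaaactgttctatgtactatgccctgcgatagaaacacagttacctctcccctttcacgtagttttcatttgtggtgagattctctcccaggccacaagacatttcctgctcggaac
The LCN2 window held an NF-kB match, GGAATGTCCC, from 175 to 166 bases before the start, and an AP-1 match, TGAATCA, from 52 to 46 bases before it, with no overlap between them. The CFB window held a STAT match, TTCCGGGAA, from 92 to 84 bases before the start. The PLAC8 window held no match to any of these motifs. Of 35116 promoters of the same length, 5.91% held the NF-kB site, 7.71% the AP-1 motif, 11.0% the C/EBP motif and 7.66% the STAT motif. A match describes the letters in these windows and shows no binding.

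Signals were in linear MAS5 units, brought to a common scale. Signals below 28.3 units, the pooled median, were set to that floor before log2 was taken, so where one array lies below the floor a fold is a lower bound. The median deposited signal was between 26.5 and 29.6 units, and between 47.4% and 51.6% of probe sets lay above the floor on each array. The arrays were less alike at the top of the range. The highest deposited signal was clearly larger on the nm23-H2 array than on the nm23-H1 and vector arrays, and only the nm23-H2 array was scaled down (by 0.881). Without replicates, error was gauged from genes with several probe sets. The SD of a log2 difference between such probe sets was 0.32 for the nm23-H1 and vector arrays, 0.35 for nm23-H2 and vector, and 0.39 for nm23-H1 and nm23-H2. NME1, the gene of Nm23-H1, gave 2379 signal units with nm23-H1, 1132 with nm23-H2 and 1519 with vector. The probe set shared by NME2 and its read-through with NME1 gave 2323, 4845 and 2272 units on the nm23-H1, nm23-H2 and vector arrays. Of 10 squamous keratinocyte markers, 7 had a usable probe set (KRT5, KRT14, KRT16, DSG3, DSP, EPCAM and CDH1), and these 7 were above the floor on every array. PTPRC, the leukocyte marker, was below the floor on all 3 (3.3, 3.8 and 3.2 units with nm23-H1, nm23-H2 and vector). Of 8 neutrophil and macrophage markers, 4, 1 and 1 were above the floor on the nm23-H1, nm23-H2 and vector arrays, none over 55.5 units. Their summed signals were 204, 105 and 116 units on the same arrays, and MPO, ELANE and LYZ were below the floor on each. Of 8 fibroblast and endothelial markers, 2, 1 and 1 were above the floor, none over 43.6 units, with sums of 132, 118 and 98.8 units.

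**Figure D1:**
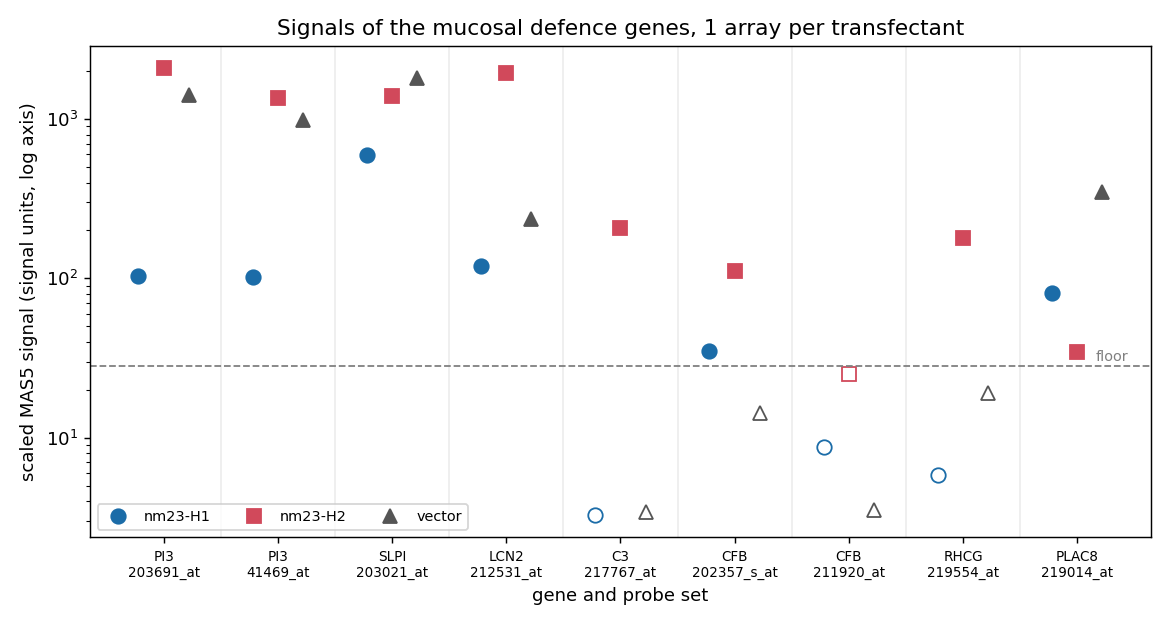
Scaled MAS5 signal of each of the 9 probe sets (x axis, grouped by gene) on a log axis in signal units, with 1 point per array: nm23-H1 circles, nm23-H2 squares, vector triangles. Filled points lie above the dashed floor of 28.3 units and open points below it. The nm23-H1 circle is lowest for PI3, SLPI and LCN2 and, below the floor, for C3 and RHCG. The nm23-H2 square is highest for PI3, LCN2, C3, CFB and RHCG, and the vector triangle is highest for SLPI and PLAC8.

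By its title the study asked which genes act downstream of Nm23-H1, which the nm23-H1 and vector arrays bear on. PI3, PLAC8 and SLPI, 3 of the 7 genes, were lower with nm23-H1 by 2-fold or more, 0 were higher by that amount and 4 differed by less. Over all 8000 measured genes, 1.71% passed 2-fold downwards and 2.16% upwards. Since the genes were picked for their differences, nothing is read from the contrast with those shares. The median difference of the 7 was -0.97 (log2), against 0 for all measured genes.

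Both elastase inhibitors were lower with nm23-H1. PI3 gave 104 signal units with nm23-H1, against 1420 with vector, by its brighter probe set, and 102 against 984 by its other one. The difference was -3.77 (13.6-fold lower) by the first and -3.28 (9.69-fold lower) by the second, so the probe sets differed in size but not in direction. The first was the most negative difference among the 8000 genes, at rank 1. SLPI gave 596 units with nm23-H1, against 1820 with vector, a difference of -1.61 (3.05-fold lower). On bulk arrays, fewer cells that express a gene and less RNA per cell cannot be told apart.

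LCN2 was lower too, at 120 signal units with nm23-H1, against 235 with vector, but its difference of -0.97 (1.96-fold) lay just short of the 2-fold threshold. PLAC8 gave 81.2 units with nm23-H1, against 351 with vector, a difference of -2.11 (4.32-fold lower, rank 10 among the lowest). Complement genes were dim on both arrays. C3 was below the floor on both, at 3.28 units with nm23-H1 and 3.43 with vector, so no fold can be given. CFB was just above the floor at 35.0 units with nm23-H1 and below it at 14.3 with vector, which gave a bound of at least 1.23-fold. RHCG was below the floor on both arrays, at 5.85 units with nm23-H1 and 19.1 with vector. Under a floor at the 25th percentile, these dim genes passed 2-fold in opposite directions, CFB at 1.29 and RHCG at -1.22.

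On the nm23-H2 array, the genes with the largest differences from vector were PLAC8, LCN2, the complement pair and RHCG. With nm23-H2, 4 of the 7 genes were at least 2-fold higher than with vector (LCN2, C3, RHCG and CFB), 1 was at least 2-fold lower (PLAC8), and PI3 and SLPI differed by less. Over all 8000 genes 3.54% passed 2-fold upwards and 3.62% downwards, from which again nothing is read for genes chosen on this contrast. With the values as deposited these shares of all measured genes were 7.92% and 1.36%, while the member counts stayed at 4 and 1. The median difference of the 7 was 1.98, against -0.06 for all measured genes.

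LCN2 gave 1960 signal units with nm23-H2, against 235 with vector, a difference of 3.06 (8.33-fold higher, rank 5 among the highest). C3 gave 207 units with nm23-H2, against 3.43 with vector, which was below the floor, so the fold was at least 7.31. Its log2 difference was 1.65 under a floor at the 70th percentile and 4.66 under one at the 25th. CFB, the partner of C3 in the alternative pathway, gave 112 units with nm23-H2, against 14.3 with vector, at least 3.95-fold by its brighter probe set. The other CFB probe set read 25.3 units with nm23-H2, against 3.54 with vector, both below the floor, so its difference of 0 was set by the floor. Before the floor, the ratio of nm23-H2 to vector was 7.14 by that probe set and 7.85 by the brighter one. CFB was therefore under 2-fold by the mean of its probe sets (0.99) and by the probe set specific by name (0). It was also under 2-fold by the brighter probe set under a floor at the 70th percentile (0.76).

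RHCG gave 181 signal units with nm23-H2, against 19.1 with vector, at least 6.37-fold higher, and stayed above 2-fold under all 8 alternatives that gave it a value (1.45 to 3.24). PLAC8 went the other way, with 34.7 units with nm23-H2, against 351 with vector, a difference of -3.34 (10.1-fold lower, rank 2 among the lowest). Its nm23-H2 signal was barely above the floor, and PLAC8 was 5.30-fold lower under a floor at the 70th percentile and 7.24-fold lower when 16 was added to each signal instead. The elastase inhibitors were near their vector levels. PI3 gave 2086 units with nm23-H2, against 1420 with vector, a difference of 0.56 by its brighter probe set and 0.46 by the other. SLPI gave 1392 units with nm23-H2, against 1820 with vector, a difference of -0.39, or -0.06 with the values as deposited.

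**Figure D2:**
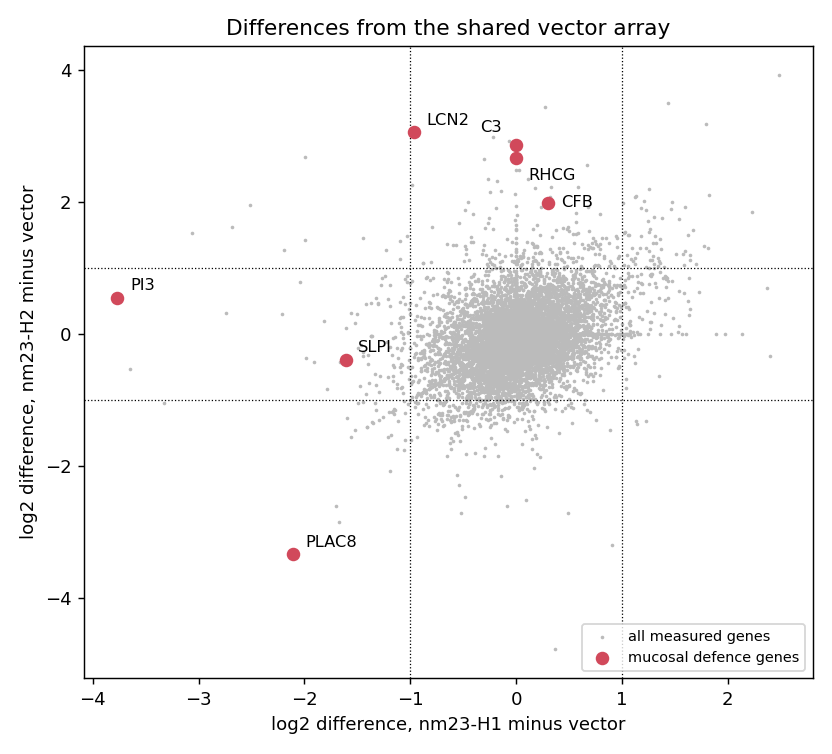
Log2 difference from vector with nm23-H1 (x axis) and with nm23-H2 (y axis) for each of 8000 measured genes in grey and the 7 mucosal defence genes in red, with dotted lines at 2-fold. Both axes share the vector array. PI3 and SLPI lie to the left near the horizontal midline, C3, RHCG and CFB lie above near the vertical midline, LCN2 lies high at the 2-fold line, and PLAC8 is low on both axes.

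Set against each other, the transfectants differed by at least 2-fold at all 7 genes. With nm23-H1, 6 were lower than with nm23-H2 and 1, PLAC8, was higher. Over all 8000 genes, 3.74% were lower and 3.74% higher by that amount. The genes were picked for differences between these arrays, so nothing is read from the contrast with those shares. The comparison uses the same 2 transfectant arrays as those against vector. PI3 gave 104 signal units with nm23-H1, against 2086 with nm23-H2, a difference of -4.32 (20.0-fold lower, rank 4 among the lowest), and its other probe set gave -3.73. LCN2 gave 120 units with nm23-H1, against 1960 with nm23-H2, a difference of -4.03 (16.3-fold lower, rank 6). These are the genes of the set with the widest span over the arrays that lie wholly above the floor.

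With nm23-H1, C3 was lower than with nm23-H2 by at least 7.31-fold, and RHCG by at least 6.37-fold. CFB was above the floor on both arrays, at 35.0 units with nm23-H1, against 112 with nm23-H2 (-1.68, 3.20-fold lower). CFB was at -0.84 by the mean of its probe sets and at -0.76 under a floor at the 70th percentile. By the probe set specific by name, which lay below the floor on both arrays, it was at 0. SLPI at -1.22 and PLAC8 at 1.23 lay closest to the threshold, each at 2.34-fold. PLAC8 gave 81.2 units with nm23-H1, against 34.7 with nm23-H2, and fell short of 2-fold when the floor was raised to the 70th percentile (0.29) or when 16 was added to each signal instead (0.94).

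Ordered by level, the genes fell into 4 patterns. PI3 and LCN2 were highest with nm23-H2, then vector, then nm23-H1, and for PI3 the step from nm23-H2 to vector was under 2-fold. SLPI was highest with vector, then nm23-H2 with a step under 2-fold, then nm23-H1. C3 and RHCG were above the floor only on the nm23-H2 array, and CFB on the nm23-H2 array and, slightly, on the nm23-H1 array. PLAC8 was highest with vector, then nm23-H1, then nm23-H2.

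The genes closest to each member over the 2 differences from vector were taken from 5034 genes by Euclidean distance on the log2 scale, which covers 3 arrays and shares the vector array between its axes. For PI3 they were SPRR1B and SPRR1A (distances 1.06 and 1.08), both cornified envelope precursors of the SPRR family. For LCN2 they were PHLDA1 and SERPINB1 (0.75 and 0.78), the second an intracellular inhibitor of neutrophil proteases. C3, CFB and RHCG lay below the floor with vector, and C3 and RHCG also with nm23-H1, so their distances, and which genes come out as closest, rest on the value of the floor. With that limit, C3 lay closest to HERPUD1, a gene of endoplasmic reticulum degradation (0.085), and then to RHCG (0.20). CFB lay closest to RELB, an NF-kB subunit (0.094), and PDZK1IP1 (0.10). RHCG lay closest to DDIT3, which encodes the stress factor CHOP (0.18), and INHBA, an activin subunit (0.19). PLAC8 was nearest to GSTM3, a glutathione transferase (0.66), and SPARC, a matrix glycoprotein (0.84). SLPI was nearest to SLC39A2, a zinc transporter (0.047), and ASB13 (0.068). Both of these were below the floor with nm23-H1, at 27.9 and 13.3 units, so their nm23-H1 differences, and these distances, rest on the floor as well.

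Position was not used in choosing the genes. They lie on 6 chromosomes of assembly GRCh38.p14, and only PI3 and SLPI are close to each other, with 75694 bases between PI3 (chromosome 20, 45174902 to 45176544) and SLPI (45252239 to 45254564). Around PI3, the 5 nearest measured genes on each side, SLPI left out, had a median difference of -0.06 with nm23-H1 and -0.05 with nm23-H2. Those 9 ranged from -0.26 to 0.70 with nm23-H1. LCN2 lies on chromosome 9 (128149453 to 128153453), where its 10 neighbours had a median of 0.57 with nm23-H2 and a range of -0.68 to 1.18.

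CFB lies on chromosome 6 (31946095 to 31952084) among genes of the major histocompatibility region. Its 10 neighbours had a median of 0.28 with nm23-H2, the highest at 1.02. C3 on chromosome 19 (6677704 to 6720650) had neighbours with a median of -0.15 and a highest difference of 0.37 with nm23-H2. For RHCG on chromosome 15 (89471407 to 89496583) the neighbours had a median of 0.28 and a highest difference of 0.48. For PLAC8 on chromosome 4 (83090048 to 83114729) they had a median of -0.20 and a lowest difference of -1.27 with nm23-H2. The members were chosen for large differences and their neighbours were not, so nothing is read from the gap between them.

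Genes with related roles were counted in lists, none of which holds the 7 genes themselves. The lists drew on general knowledge, but all were chosen with earlier results of these data known. Their counts are therefore given as a description only. Over all measured genes, 1.71% were at least 2-fold lower and 2.16% higher with nm23-H1. With nm23-H2 the shares were 3.62% lower and 3.54% higher. Nothing is read from the count of any list against these shares. Of the WAP family, to which elafin and SLPI belong, WFDC2 was the only further gene measured of 3 with a probe set. WFDC2 gave 208 signal units with nm23-H1, 319 with nm23-H2 and 128 with vector, so it was 2.49-fold above vector with nm23-H2 (1.31) and 0.70 above it with nm23-H1. It therefore did not share the low nm23-H1 level of PI3 and SLPI. Of 12 measured serine proteases of neutrophils and keratinocytes, 1 was at least 2-fold lower with nm23-H1 (KLK10, 2.01-fold lower, and -0.33 by its other probe set) and 1 with nm23-H2 (KLK6, -1.24), and 0 were higher on either array. With the values as deposited, both were under 2-fold, KLK10 at -0.89 and KLK6 at -0.91.

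Of 11 other epithelial protease inhibitors, 1 was at least 2-fold lower with nm23-H1 and 0 higher. This was CSTA, cystatin A of the cornified envelope, at 325 units with nm23-H1, against 802 with vector (-1.30). With nm23-H2, SERPINB1 was higher at 1270 units, against 202 with vector (2.65, and 1.84 by its other probe set). SERPINB13 was lower with nm23-H2 at -1.47 by the probe set used, but its 5 other probe sets had a median of -0.17. The list's medians were 0 with nm23-H1 and 0.25 with nm23-H2, against 0 and -0.06 for all measured genes. Of all measured genes, 1.71% were at least 2-fold lower and 2.16% higher with nm23-H1. With nm23-H2, 3.62% were lower and 3.54% higher, and nothing is read from the list's counts.

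Among 10 genes of lipocalins and iron handling, 0 were at least 2-fold different with nm23-H1, and with nm23-H2 only PTGDS, another lipocalin, was lower (at least 2.69-fold), while its 2 other probe sets had a median of 0.22 and a floor at the 70th percentile gave -0.20. With nm23-H2, 0 of these 10 genes were at least 2-fold higher, as LCN2 was, but only 3.54% of all measured genes were. The list's median was -0.10 with nm23-H2, so nothing is read about LCN2 from this list. Of 12 other complement components and regulators, 2 were at least 2-fold higher with nm23-H2 (3.54% of all measured genes) and 1 lower (3.62%). The list's median was -0.07, against -0.06 for all measured genes, and nothing is read from the counts. The higher ones were C1R and C1S, the paired proteases that start the classical pathway. C1R gave 61.7 signal units with nm23-H1, 119 with nm23-H2 and 6.64 with vector, which put it above vector by at least 2.18-fold with nm23-H1 and at least 4.21-fold with nm23-H2. C1S gave 22.0 units with nm23-H1, 109 with nm23-H2 and 6.86 with vector, at least 3.85-fold above vector with nm23-H2. As with C3 and CFB, the vector signal was below the floor. The lower gene was CD46, a regulator that protects host cells from complement, at least 2.30-fold lower with nm23-H2 and -0.85 by the median of its other probe sets. Under a floor at the 70th percentile none of these 3 reached 2-fold with nm23-H2 (C1R 0.85, C1S 0.72, CD46 0), nor did C1R with nm23-H1 (0).

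**Figure D3:**
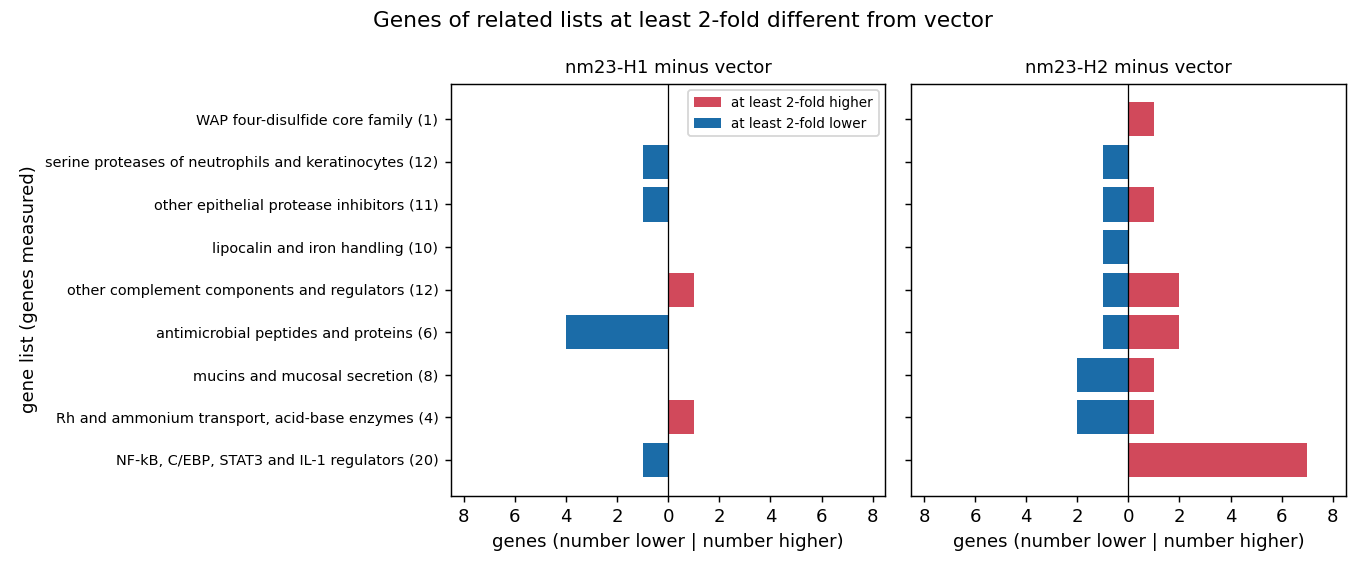
Number of genes at least 2-fold lower (blue, left of 0) and higher (red, right of 0) than vector in 9 related gene lists, with nm23-H1 in the left panel and nm23-H2 in the right; the number of measured genes stands in parentheses. Antimicrobial genes have the longest bar with nm23-H1 (4 lower of 6), and NF-kB and interleukin 1 regulators the longest with nm23-H2 (7 higher of 20).

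Antimicrobial peptides and proteins had 6 measured genes, of which 4 were at least 2-fold lower with nm23-H1 and 0 higher (median -1.74). Over all measured genes 1.71% were that much lower, and nothing is read from that contrast, since this list too was drawn up with earlier results known. The count was 2 of 6 under a floor at the 70th percentile (median -0.52) and 3 of 5 by probe sets specific by name. All 4 were S100 proteins, calcium-binding proteins of stressed keratinocytes that bind metal ions microbes need. S100A9 gave 88.2 signal units with nm23-H1, 1952 with nm23-H2 and 504 with vector, so it was 5.71-fold below vector with nm23-H1 and 3.87-fold above it with nm23-H2. S100A8, its partner, gave 229, 5493 and 1904 units on the nm23-H1, nm23-H2 and vector arrays, 8.33-fold below vector with nm23-H1 and 2.88-fold above it with nm23-H2, while its other probe set gave 0 with nm23-H1 and 0.89 with nm23-H2. S100A7 was at least 4.12-fold and S100A12 at least 2.72-fold lower with nm23-H1. Under a floor at the 70th percentile these were at -0.82 and -0.22. With nm23-H2, 2 of the 6 were higher and 1, BPIFA1, was lower (at least 2.35-fold, and -0.0085 under that higher floor). S100A8 and S100A9 were thus highest with nm23-H2, then vector, then nm23-H1, the order seen for PI3 and LCN2.

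Of 8 mucins and genes of mucosal secretion, 0 were at least 2-fold different with nm23-H1. Only 1.71% of all measured genes were that much lower and 2.16% higher with nm23-H1, so nothing is read from that count. With nm23-H2, the membrane mucin MUC1 was higher at 178 units, against 71.2 with vector (1.32, and 1.46 by the median of its other probe sets). PIGR, the carrier of secretory antibodies, was at least 2.27-fold lower with nm23-H2, and MUC5AC at least 2.05-fold, with a median of 0 over its 3 other probe sets. RHAG, RHBG and RHD, the other Rh family genes that could be named singly, were below the floor on every array by the probe set used for each. With all probe sets of a gene taken, 5 genes of the Rh and acid-base list were measured in place of 4. An Rh gene thus had another probe set above the floor. Among 4 acid-base and ammonia genes, CA2, a carbonic anhydrase, gave 383 units with nm23-H1, 67.9 with nm23-H2 and 174 with vector, so it was 2.20-fold above vector with nm23-H1 and 2.56-fold below it with nm23-H2. GLUL, glutamine synthetase, was 2.06-fold lower with nm23-H2 and SLC4A2, an anion exchanger, 2.34-fold higher. GLUL was at -0.72 with the values as deposited. Under a floor at the 70th percentile PIGR and MUC5AC were at 0 and SLC4A2 at 0.81.

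Known regulators of inflammatory genes were counted last. Of 20 measured NF-kB, C/EBP, STAT3 and interleukin 1 genes, 7 were at least 2-fold higher with nm23-H2 and 0 lower (median 0.52). Over all measured genes 3.54% were that much higher, but the list was drawn up with earlier results of these data known, so nothing is read from the contrast. With nm23-H1, 1 was lower and 0 higher (median -0.01). TNFAIP3, a feedback inhibitor of NF-kB, gave 475 signal units with nm23-H2, against 43.6 with vector (3.44, and 2.60 by its other probe set). IL1B gave 425 units with nm23-H2, against 97.6 with vector (2.12, and 2.09 by its other probe set). RELB gave 145 units with nm23-H2, against 38.3 with vector (1.92), and IL1A gave 174 against 34.1 (2.35, and 0 by its other probe set). With nm23-H1, IL1RN, the interleukin 1 receptor antagonist, was the lower gene at -1.03, with a median of 0 over its 4 other probe sets. IL1RN was under 2-fold in 7 of 9 alternatives. With the values as deposited it was at -0.92, and 0 genes of the list were then at least 2-fold lower with nm23-H1. By probe sets specific by name, 3 of 12 regulators were at least 2-fold higher with nm23-H2. Whether any regulator bears on the level of the 7 genes was not tested.

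**Figure D4:**
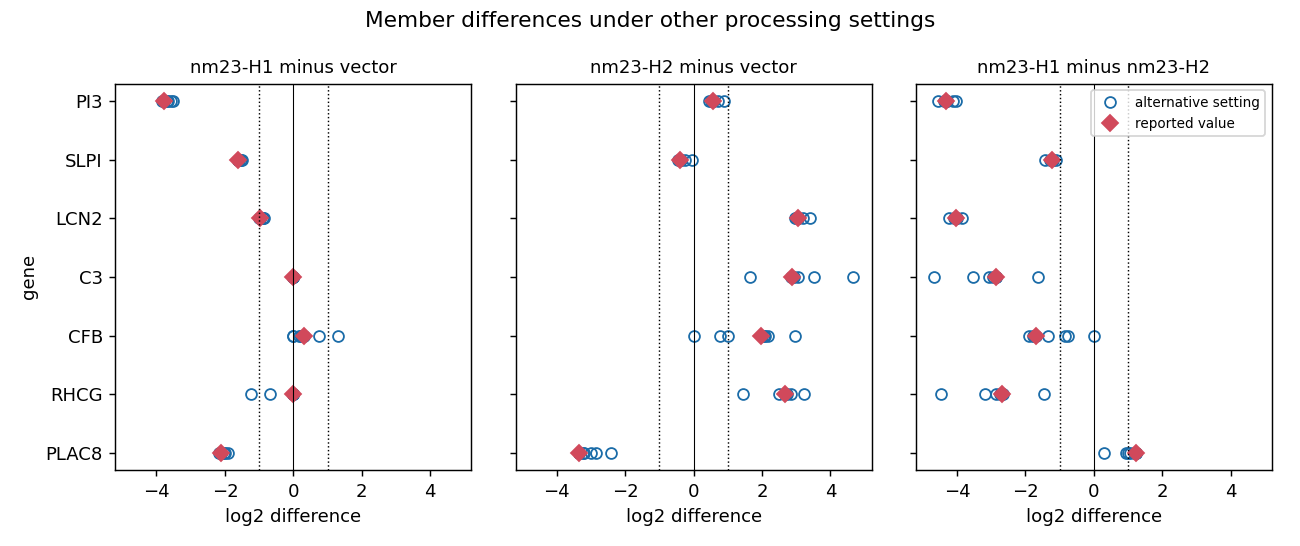
Log2 difference of each of the 7 genes (rows) in the 3 comparisons (panels), as reported (red diamonds) and under each alternative processing setting (blue circles), with dotted lines at 2-fold. PI3, SLPI and LCN2 move little in every panel, whereas C3, CFB and RHCG spread widely in both panels that involve nm23-H2. For nm23-H1 minus vector, CFB spreads from 0 to 1.29 and RHCG from -1.22 to 0. PLAC8 spreads from -3.34 to -2.41 for nm23-H2 minus vector and from 0.29 to 1.23 for nm23-H1 minus nm23-H2.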

How the data were processed

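Total RNA of 3 CAL 27 transfectants was hybridised to 1 Affymetrix array each, from 15 µg of fragmented cRNA per the labels. The deposited table holds a linear signal intensity for each probe set, which the authors made with MAS5 per the submitters' processing notes. Its version, scaling target and detection calls are not given in the sources used here. MAS5 signals of dim probe sets are noisy, which the floor limits.

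Each array was multiplied (nm23-H1 by 1.03, nm23-H2 by 0.881, vector by 1.11) so that its mean between the 2nd and 98th percentiles met the geometric mean of the 3 arrays. Values under the pooled median were set to it, and log2 was taken. Of the probe sets, 19071 named a single gene, 1043 named several and 2169 named none; the last 2 kinds were not used, apart from the NME2 probe set. Each gene was represented by its brightest probe set on average, with _x_at ones (probes that can cross-hybridise) taken last. A gene was measured when above the floor on at least 1 array. Symbols came from the platform annotation, updated by gene ID to RefSeq. A difference of 1 on the log2 scale was counted as 2-fold.

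For the probe set error, the log2 differences given by a gene's 2 brightest probe sets (each above the floor on the arrays compared) were subtracted, and the SD over genes was divided by the square root of 2. It covers neither cultures nor hybridisations, and the number of arrays limits the precision. Named were the 7 genes, NME1 and NME2, up to 4 genes per list and comparison with the largest difference of at least 2-fold, and the 2 genes closest to each member among those reaching the 70th percentile (66.2 units). The members and lists were chosen with earlier results of these data known. The steps were tested on simulated data. Alternatives were other scalings, floors, probe set choices and thresholds. Python 3.11.15, numpy 2.4.6, pandas 2.3.3 and matplotlib 3.10.9 were used.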

Additional observations from a re-analysis of the deposited data

How the results depend on the processing

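The counts of members at least 2-fold higher or lower were recomputed under up to 10 alternatives. The count higher with nm23-H1 than with vector was 0 as reported and 1 (CFB) under a floor at the 25th percentile. The count higher with nm23-H1 than with nm23-H2 was 1 (PLAC8) as reported and 0 in 3 cases: when the floor was raised to the 70th percentile, when 16 was added to each signal and no floor was set, and when the threshold was 1.5 on the log2 scale. The other counts stayed within 1.5 times the reported ones under the alternatives run. Of 175 recomputed log2 differences of single members, 150 moved by less than 1 probe set SD, 25 moved by more, and 0 of those at least 2-fold changed sign. All 25 came from another floor, from 16 added in its place or, for CFB, from another choice of probe sets. With the values as deposited, the median of all genes for nm23-H2 against vector was 0.17 in place of -0.06, and of all genes 2.66% passed 2-fold upwards and 1.16% downwards for nm23-H1 against vector. With nm23-H2 left out of the scaling, PI3, SLPI and PLAC8 were still at least 2-fold lower with nm23-H1. Signal over the floor limits C3, CFB and RHCG, whose folds against vector are bounds. No paired analysis was possible because each group has 1 array.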
